A study of Mus musculus with 8 samples.

Results

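The genes described here are the nuclear genes that encode subunits of respiratory complexes II, III, IV and V, read in RNA from mouse heart. They were taken from the deposited table as protein-coding entries whose names begin with Cox4 to Cox8, Uqcr or Atp5, or are Sdha, Sdhb, Sdhc or Sdhd. The rule used names alone and no measured value. It found 48 of 54532 listed genes, 4 in complex II, 8 in complex III, 18 in complex IV and 18 in complex V. Of these, 45 passed the filter on low values (at least 0.5 FPKM and 10 reads in at least 2 libraries) among 13928 genes that were tested.

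Heart tissue came from C57BL/6 mice, wild type (WT) or Piezo1-Cko, after sham or TAC surgery, with 2 libraries in each of the 4 groups. TAC usually stands for transverse aortic constriction, which loads the left ventricle with pressure, and Piezo1 encodes a mechanically gated cation channel. The labels give no age, sex or time after surgery, and they do not say which promoter drives a Cre or which cells carry the altered allele. Nothing in them says whether the libraries of a group are from different animals, so the p-values reflect the spread among these samples alone, and part of that spread may be technical.

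Complexes III and IV pass electrons toward oxygen and pump protons across the inner mitochondrial membrane, and complex V, the ATP synthase, uses the returning protons to make ATP. Complex II feeds electrons from succinate into the chain and also belongs to the citric acid cycle; all of its subunits are nuclear, while the other complexes also contain subunits encoded in mitochondrial DNA. Several complex IV subunits exist as a form found in heart and skeletal muscle and a form found in most tissues, and the adult heart is known for its reliance on this system.

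The libraries held 15574769 to 17313084 reads, of which mitochondrially encoded genes took 17.6% to 24.4%. The tissue label was checked with 8 cardiomyocyte genes, all of which passed the filter. One WT sham library, replicate 1, stood apart: atrial genes other than Nppa (Sln, Myl7, Myl4 and Bmp10) summed to 478 FPKM there and to between 0.440 and 1.36 FPKM in the other 7, with Bmp10 at 0 in all 8. Piezo1 was at 2.35 and 3.09 FPKM with sham surgery and 5.38 and 5.83 with TAC in WT, and at 3.83 and 3.23 (sham) and 5.24 and 3.89 (TAC) in Cko. Such a total does not check the genotype label, since reads from undeleted exons or from cells without the deletion count toward it.

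The promoters of the muscle and ubiquitous forms of complex IV subunits are shown because the comparison of paired forms turns on these genes. Each runs from 250 bases before to 50 bases after the annotated start, from RefSeq on GRCm38.p6. Capitals mark exact matches, on either strand, to the NRF1 palindrome of 10 bases, to CCGGAAG (ETS family, including GABP), to GGGCGG (Sp1) and to TATAAA (the core element known as the TATA box). Cox8b lies at chr7:140900397-140900696 (minus strand), Cox8a at chr19:7217567-7217866 (minus), Cox7a1 at chr7:30183921-30184220 (plus), Cox7a2 at chr9:79759804-79760103 (minus) and Cox6a1 at chr5:115348909-115349208 (minus).
Cox8b: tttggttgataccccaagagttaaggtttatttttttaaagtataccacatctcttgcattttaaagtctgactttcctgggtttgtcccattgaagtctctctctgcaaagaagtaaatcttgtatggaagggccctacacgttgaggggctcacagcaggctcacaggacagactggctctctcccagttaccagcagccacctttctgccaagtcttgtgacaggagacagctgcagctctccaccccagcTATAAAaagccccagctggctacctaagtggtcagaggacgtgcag
Cox8a: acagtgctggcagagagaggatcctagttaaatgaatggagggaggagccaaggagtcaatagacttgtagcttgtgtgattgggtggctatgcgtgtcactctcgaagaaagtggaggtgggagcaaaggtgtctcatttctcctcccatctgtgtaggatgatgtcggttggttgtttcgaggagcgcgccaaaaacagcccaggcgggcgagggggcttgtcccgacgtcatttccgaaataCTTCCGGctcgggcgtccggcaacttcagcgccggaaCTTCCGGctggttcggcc
Cox7a1: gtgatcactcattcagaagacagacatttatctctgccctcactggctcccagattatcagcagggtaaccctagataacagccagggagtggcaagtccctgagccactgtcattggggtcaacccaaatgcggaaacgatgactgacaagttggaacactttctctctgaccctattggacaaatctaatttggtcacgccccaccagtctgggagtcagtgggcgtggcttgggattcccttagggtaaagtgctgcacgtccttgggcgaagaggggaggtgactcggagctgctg
Cox7a2: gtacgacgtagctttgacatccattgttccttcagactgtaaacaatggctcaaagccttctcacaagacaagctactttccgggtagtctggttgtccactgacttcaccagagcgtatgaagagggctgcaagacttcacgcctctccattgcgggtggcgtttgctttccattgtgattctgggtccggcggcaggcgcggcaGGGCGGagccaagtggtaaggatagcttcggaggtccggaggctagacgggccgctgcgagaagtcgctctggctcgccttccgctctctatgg
Cox6a1: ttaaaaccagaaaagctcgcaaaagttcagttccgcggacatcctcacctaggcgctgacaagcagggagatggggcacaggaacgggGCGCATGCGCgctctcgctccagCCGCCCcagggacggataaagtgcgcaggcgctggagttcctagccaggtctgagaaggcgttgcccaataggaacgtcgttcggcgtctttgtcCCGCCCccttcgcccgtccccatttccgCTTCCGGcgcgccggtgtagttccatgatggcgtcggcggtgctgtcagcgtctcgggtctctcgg

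The muscle form Cox8b held a TATA box match, just after its annotated start, and no match to the other motifs. Its ubiquitous counterpart Cox8a held 2 ETS matches. Cox7a1, also a muscle form, held none of the motifs, and Cox7a2 held 1 Sp1 match. Cox6a1 held 1 NRF1, 1 ETS and 2 Sp1 matches. The share of guanine and cytosine was 48.3% for Cox8b, 56.0% for Cox8a, 53.0% for Cox7a1, 56.7% for Cox7a2 and 63.0% for Cox6a1.

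The RefSeq table held promoters for 34 of the 47 distinct gene names; those without an entry were Sdhc, Uqcrb, Uqcrc2, Uqcrq, Cox4i1, Cox4i2, Cox6a2, Cox6c, Cox8c, Atp5a1, Atp5f1, Atp5mpl and Atp5s. A gene was counted if any of its listed promoters held the motif. Of the 33 with a promoter that also passed the filter, 12 (36.4%) held the ETS motif. The share was 19.9% of the 9719 tested protein-coding genes with a promoter and 9.93% of all 27025 genes with one. NRF1 was matched in 4 (12.1%, against 2.29% and 1.07%): Uqcrc1, Cox6a1, Atp5g2 and Atp5k. The motif TCAAGGTCA of estrogen-related receptors (ERR) was matched in Sdhd and Atp5g3 (6.06%, against 0.340% and 0.466%), and the MEF2 motif TAAAAATA in 0 (against 1.54% and 3.09%). Sp1 was matched in 11 (33.3%, against 68.6% and 38.2%) and TATAAA in Cox8b and Atp5l (6.06%, against 8.96% and 15.7%). A match is a string of letters and not a measured binding site. The log2 change with TAC, averaged over genotypes, had a median of -0.85 in the 12 genes with the ETS motif and -0.81 in the 21 without it. It was -0.65 in the 11 with Sp1 and -0.84 in the 22 without, -0.70 in the 4 with NRF1 and -0.82 in the other 29, -0.55 in the 2 with ERR and -0.97 in the 2 with TATAAA (-0.82 in the other 31 for each). None of these splits was tested.

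The 48 genes together took 4.46% and 5.22% of the reads in WT sham and 4.69% and 4.54% in Cko sham. With TAC they took 2.78% and 3.26% in WT and 3.16% and 3.70% in Cko, so all 4 TAC libraries lay below all 4 sham libraries.

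In WT sham, the mean level per kilobase of listed gene length was highest in complex IV for Cox6a2 (3848 FPKM), Cox8b (2923), Cox7a1 (2303) and Cox4i1 (1899), the first 3 of which are muscle forms, an order that depended on the length used. Cox6b2, the testis form of subunit VIb, was the lowest of those that passed, at 0.881 to 2.86 FPKM over the 8 libraries. Sdhb, the iron-sulfur subunit of complex II, stood at 551 FPKM and Sdhc, a membrane anchor, at 170. Uqcr11, a small subunit of complex III, stood at 1565 FPKM and Uqcrc2, a core subunit, at 240. In complex V, Atp5a1, the alpha subunit of the catalytic head, stood at 1613 FPKM and Atp5s, a coupling factor rather than a structural subunit, at 14.4.

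The listed lengths join all transcripts of a gene and can exceed the main mRNA, which lowers the level of some genes: the listed length was 3567 bases for Cox6c against 738 in its principal GENCODE transcript, and 6443 against 544 for Atp5l. Per kilobase of the principal transcript, an alternative chosen after seeing the data, Cox4i1 (3847) was level with Cox6a2 (3848) and above Cox7a1 (3135) and Cox8b (2923). On that scale Cox6c rose in rank from 10 to 6 of 16 in complex IV and Atp5l from 16 to 10 of 17 in complex V, while Atp5b (3281) and Atp5g3 (3079) stood above Atp5a1 (2046). Comparisons of one gene between libraries do not depend on this length.

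The 3 genes that did not pass the filter were Cox7b2, at 0.105 FPKM in WT TAC replicate 2 and at 0 in the other libraries, and Cox8c and a second gene identifier named Atp5o, both listed at 0 in all 8 libraries.

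**Figure D1:**
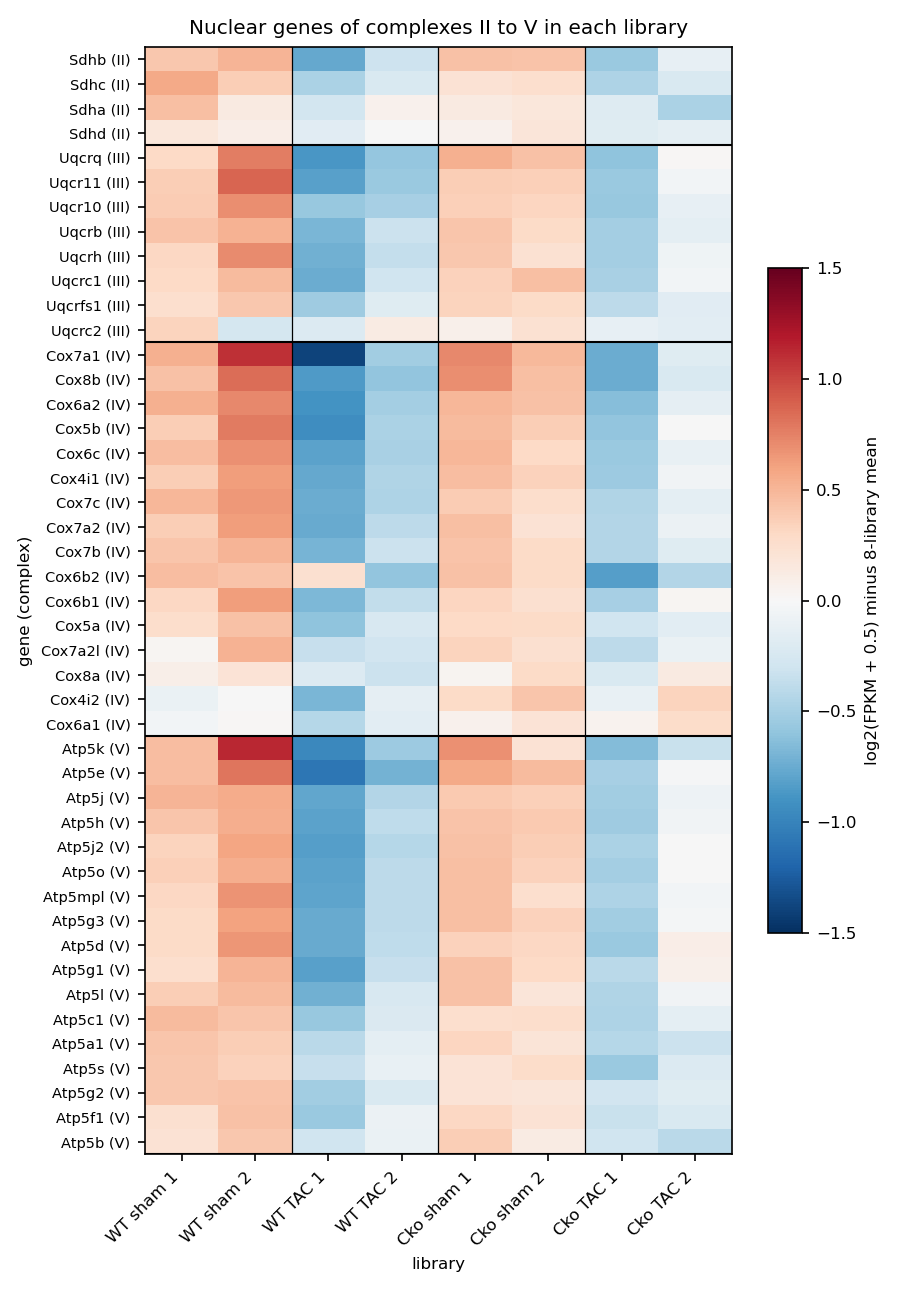
Heat map of the 45 genes that passed the filter (one per line, with its complex) in the 8 libraries (columns), coloured by log2(FPKM + 0.5) minus the gene's mean over the libraries. The 4 sham libraries are above the gene means for most genes and the 4 TAC libraries below, with median deviations of 0.29 to 0.53 in sham and -0.72 to -0.11 in TAC.

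TAC was compared with sham, averaged over both genotypes with equal weight, to ask how the surgery changed these genes. The genes of all 4 complexes fell together: 40 of 45 were lower by limma with Benjamini-Hochberg adjustment over all genes tested (threshold 0.05) and 0 were higher. Over all genes tested, 13.5% were lower and 11.9% higher. The median log2 fold change was -0.82, against 0.01 over all genes tested, and all 45 estimates were below 0. In 41 of the 45, all 4 TAC libraries lay below all 4 sham libraries, which held for 14.6% of all genes tested. In bulk tissue, fewer cells of a type and less RNA per cell cannot be told apart.

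How firmly each gene passed depended on the libraries. Over each of the 16 alternatives run for this comparison, 25 of the 40 passed in every one. The other 15 all lost their call without Cko sham replicate 1, which left 25 passing: Sdha, Uqcrfs1, Uqcrh, Cox6b1, Cox6b2, Cox7a2l, Atp5a1, Atp5b, Atp5c1, Atp5d, Atp5f1, Atp5g1, Atp5g3, Atp5l and Atp5mpl. Without WT sham replicate 1, the library with atrial genes, 38 passed and the median was -0.85.

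**Figure D2:**
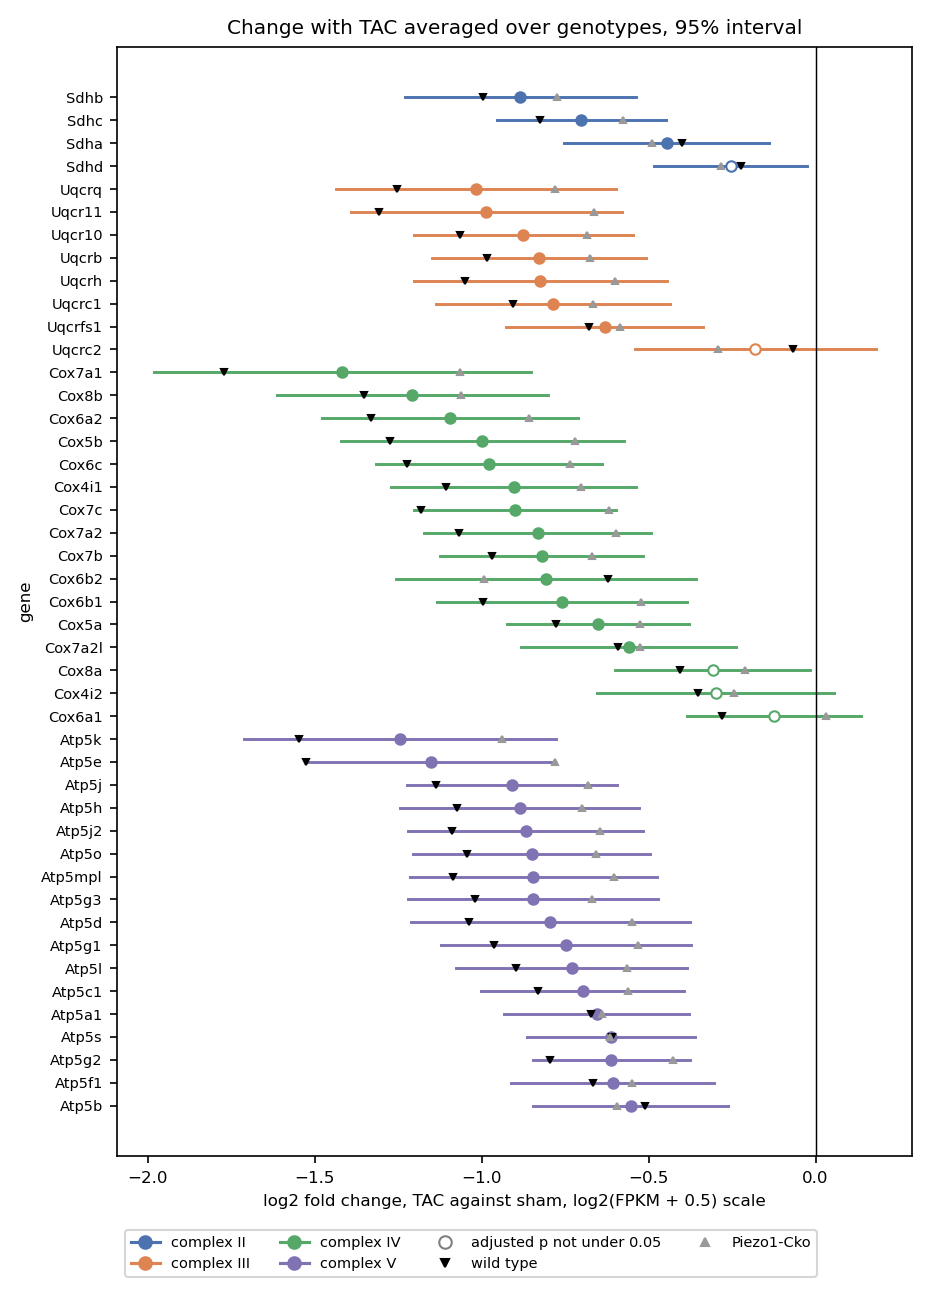
Log2 fold change of each of the 45 genes, TAC against sham averaged over genotypes (horizontal axis, log2(FPKM + 0.5) scale), with its 95% interval from limma, ordered and coloured by complex. All points lie below 0, from -1.42 for Cox7a1 to -0.12 for Cox6a1.

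In complex II, 3 of 4 genes fell and the median was -0.57. Sdhb, which carries the iron-sulfur clusters, was at 531 and 572 FPKM with sham surgery and 235 and 324 with TAC in WT, and at 544 and 540 (sham) and 273 and 368 (TAC) in Cko. Both TAC groups lay below both sham groups, and the log2 fold change was -0.88 (SE 0.149, limma adjusted p = 0.00825). Sdhc fell by 0.70 on the log2 scale (adjusted p = 0.00679). Sdha, the flavoprotein that oxidizes succinate, was at 342 and 275 FPKM with sham surgery and 207 and 261 with TAC in WT, and at 275 and 282 (sham) and 218 and 180 (TAC) in Cko. The groups did not overlap but the gap between WT sham and WT TAC was small, and Sdha fell by 0.45 (adjusted p = 0.0444), a call lost under 10 of the 16 alternatives. Sdhd, the other anchor, changed too little to pass, with a log2 value of -0.25 (limma adjusted p = 0.0947).

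In complex III, 7 of 8 genes fell and the median was -0.83. The small supernumerary subunits Uqcrb, Uqcrh, Uqcrq, Uqcr10 and Uqcr11, which surround the catalytic core, all passed, with a median of -0.88. Uqcr11 was at 1289 and 1841 FPKM with sham surgery and 568 and 681 with TAC in WT, and at 1295 and 1288 (sham) and 680 and 976 (TAC) in Cko, with no overlap between surgeries. Its log2 fold change was -0.99 (SE 0.174, adjusted p = 0.00930 by limma). Uqcrfs1, the Rieske iron-sulfur protein that takes part in electron transfer, fell by 0.63 (adjusted p = 0.0135).

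The 2 core subunits of complex III had unlike values. Uqcrc1 was at 381 and 430 FPKM with sham surgery and 185 and 252 with TAC in WT, and at 394 and 425 (sham) and 221 and 300 (TAC) in Cko, and it fell by 0.79 (adjusted p = 0.0115). Uqcrc2 was at 289 and 191 FPKM with sham surgery and 200 and 251 with TAC in WT, and at 242 and 269 (sham) and 211 and 206 (TAC) in Cko. The lowest sham library of Uqcrc2 was below all 4 TAC libraries, and its log2 fold change was -0.18 (SE 0.155, adjusted p = 0.417). Its sign changed to 0.04 when libraries were scaled by total reads. The difference between the 2 core genes was not tested. Exons of Uqcrc2 overlap those of Pdzd9 on the other strand, and whether the counting used strand is not given in the sources used here.

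In complex IV, 13 of 16 genes fell and the median was -0.83. Cox6c, a single-form structural subunit, was at 450 and 525 FPKM with sham surgery and 186 and 232 with TAC in WT, and at 461 and 402 (sham) and 221 and 302 (TAC) in Cko. Both TAC groups lay below both sham groups, and Cox6c fell by 0.98 (SE 0.145, limma adjusted p = 0.00615), which is 1.97-fold. Cox5a, which contacts the catalytic core on the matrix side, was at 283 and 319 FPKM with sham surgery and 154 and 199 with TAC in WT, and at 289 and 288 (sham) and 191 and 210 (TAC) in Cko. These groups did not overlap either, and Cox5a fell by 0.65 (SE 0.117, adjusted p = 0.00972). Cox5b fell by 1.00 and Cox7c by 0.90 (adjusted p = 0.0102 and 0.00578).

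Subunit IV, the largest nuclear subunit of complex IV, is encoded by Cox4i1 in most tissues and by Cox4i2 mainly in lung. Cox4i1 was at 1730 and 2067 FPKM with sham surgery and 788 and 977 with TAC in WT, and at 1841 and 1707 (sham) and 920 and 1291 (TAC) in Cko, and it fell by 0.90 (adjusted p = 0.00895). Cox4i2 was at 21.3 and 22.8 FPKM with sham surgery and 14.1 and 20.9 with TAC in WT, and at 28.2 and 30.9 (sham) and 21.2 and 29.1 (TAC) in Cko. Its surgery groups overlapped, and its log2 fold change was -0.30 (adjusted p = 0.183). Cox4i2 made up 1.09% to 2.25% of the summed FPKM of the pair, so Cox4i1 was the main form in all 8 libraries. Exons of Cox4i1 overlap those of Emc8 on the other strand.

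All 17 genes of complex V fell, with a median of -0.79. Among the 5 genes of the catalytic head and its central stalk, Atp5a1 fell by 0.66 and Atp5b, the beta subunit, by 0.55 (limma adjusted p = 0.010 and 0.0194). Atp5e, the epsilon subunit in the central stalk, fell by 1.15. Atp5e was at 493 and 621 FPKM with sham surgery and 168 and 219 with TAC in WT, and at 531 and 495 (sham) and 252 and 353 (TAC) in Cko. All of its TAC values were below all of its sham values (SE 0.158, limma adjusted p = 0.00488).

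The c ring, which turns as protons cross the membrane, is built from 1 protein encoded by 3 genes. Atp5g1 fell by 0.75, Atp5g2 by 0.61 and Atp5g3 by 0.85 (limma adjusted p = 0.0165, 0.00785 and 0.0113). Atp5g3 was the most abundant of them per listed length, at 909 and 1132 FPKM with sham surgery and 440 and 568 with TAC in WT, and at 1015 and 945 (sham) and 519 and 728 (TAC) in Cko. The log2 ratio to Atp5g3 differed between TAC and sham by 0.10 for Atp5g1 and by 0.23 for Atp5g2, with no test.

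The 4 genes of the peripheral stalk, which holds the head still, had a median of -0.87 and the 4 of the membrane part -0.86. Atp5k, the e subunit of the membrane part, was at 633 and 1008 FPKM with sham surgery and 236 and 315 with TAC in WT, and at 740 and 533 (sham) and 294 and 364 (TAC) in Cko. It fell by 1.24 (SE 0.201, adjusted p = 0.00726), the second largest change among the 45 genes. Atp5s fell by 0.61 (adjusted p = 0.00927).

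Reads of some genes may belong to near-identical copies. Of the 48 genes, 21 had a processed pseudogene (identity of 90% or more along 50% or more of its length), 68 copies in all. The copies held 28.1% of the combined reads for Atp5l, 20.7% for Atp5g1 and 12.3% for Atp5h, and at most 6.56% for the others. How reads that match both a gene and a copy were counted is not given in the sources used here. These shares therefore do not rank the genes by certainty. Exons of 14 of the 48 overlap another gene, including Cox6a2 with Itgad, Cox6c with Vps13b, Atp5a1 with Haus1 and Atp5j with Gabpa, each on the other strand.

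All 3 muscle forms of complex IV fell (median -1.21), and 4 of the 6 ubiquitous forms fell (median -0.79) and Cox6a1 and Cox8a did not pass. Cox6a2, the muscle form of subunit VIa (GRCm38 chromosome 7, 128205435 to 128206387), was at 3597 and 4099 FPKM with sham surgery and 1333 and 1745 with TAC in WT, and at 3520 and 3389 (sham) and 1604 and 2267 (TAC) in Cko. It fell by 1.09 (SE 0.165, limma adjusted p = 0.00641), with no overlap between surgeries. Cox6a1, the form of most tissues (chromosome 5, 115345642 to 115348981), was at 237 and 246 FPKM with sham surgery and 181 and 218 with TAC in WT, and at 254 and 280 (sham) and 253 and 294 (TAC) in Cko. The groups overlapped, and its log2 fold change was -0.12 (SE 0.111, adjusted p = 0.436), with a sign that changed to 0.10 when libraries were scaled by total reads and to 0.04 by reads outside mitochondrially encoded genes.

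The ratio of the 2 forms within a library does not depend on how libraries are scaled to each other. The log2 ratio of Cox6a2 to Cox6a1 was 3.84 ± 0.196 (SD, n = 4) in sham and 2.87 ± 0.148 in TAC, a difference of -0.97 (two-sided exact permutation test over the 8 libraries, p = 0.0286, adjusted over 3 pairs p = 0.0286). This is the smallest p that 70 permutations allow. The permutations exchange libraries across genotypes, so p treats the genotypes as exchangeable, here and for the pairs that follow. The lowest sham ratio, 3.59, was above the highest TAC ratio, 3.0. The difference was -1.05 within WT and -0.89 within Cko, where 2 against 2 libraries allow no useful test. Cox6a2 made up 93.8% to 94.3% of the pair in WT sham, 88.0% to 88.9% in WT TAC, 92.4% to 93.3% in Cko sham and 86.4% to 88.5% in Cko TAC, so it stayed the main form.

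Subunit VIIa gave a smaller shift. Cox7a1, its muscle form (chromosome 7, 30184144 to 30186078), was at 1863 and 2743 FPKM with sham surgery and 489 and 894 with TAC in WT, and at 2113 and 1795 (sham) and 766 and 1132 (TAC) in Cko. It had the largest fall of the 45 genes, 1.42 (SE 0.242, limma adjusted p = 0.00863), or 2.67-fold. Cox7a2 (chromosome 9, 79755361 to 79759878) was at 511 and 608 FPKM with sham surgery and 234 and 302 with TAC in WT, and at 541 and 458 (sham) and 290 and 372 (TAC) in Cko, and fell by 0.83 (adjusted p = 0.00913). Both forms were without overlap between surgeries. The log2 ratio went from 1.99 ± 0.129 in sham to 1.41 ± 0.247 in TAC (SD, n = 4; difference -0.59, exact permutation p = 0.0286, adjusted p = 0.0286), with -0.71 within WT and -0.47 within Cko.

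For subunit VIII, the muscle form Cox8b (chromosome 7, 140898945 to 140900446) was at 2524 and 3323 FPKM with sham surgery and 1034 and 1240 with TAC in WT, and at 3032 and 2545 (sham) and 1113 and 1592 (TAC) in Cko. It fell by 1.21 (SE 0.174, limma adjusted p = 0.00574), without overlap. Cox8a (chromosome 19, 7215158 to 7217616) was at 372 and 402 FPKM with sham surgery and 304 and 280 with TAC in WT, and at 360 and 427 (sham) and 298 and 384 (TAC) in Cko. Its surgery groups overlapped through Cko TAC replicate 2, and its log2 fold change was -0.31 (adjusted p = 0.107, 95% interval -0.60 to -0.02). The log2 ratio went from 2.86 ± 0.237 to 1.96 ± 0.166 (SD, n = 4; difference -0.90, exact permutation p = 0.0286, adjusted p = 0.0286), with -0.95 within WT and -0.85 within Cko.

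No genotype difference in the ratios passed. Piezo1-Cko minus WT over 4 against 4 libraries was -0.22 for Cox6a2 to Cox6a1, 0.07 for Cox7a1 to Cox7a2 and -0.03 for Cox8b to Cox8a (exact permutation p = 0.543, 0.829 and 0.943, all 0.943 after adjustment over 3 pairs). These permutations exchange libraries across surgeries, so the surgery difference counts as spread and the test cannot show that genotype has no effect. Under sham, the Cox6a2 to Cox6a1 log2 ratios were 3.79 and 3.59 in Cko, below the 3.92 and 4.05 in WT. Under TAC the genotypes overlapped for this pair, and for the other pairs they overlapped under each surgery. With each library left out in turn, the surgery difference in each pair stayed below 0, over a range of -1.05 to -0.90 for subunit VIa, -0.65 to -0.47 for VIIa and -0.99 to -0.83 for VIII. Markers of skeletal muscle, which shares the muscle forms, summed to at most 3.05 FPKM in any library, and Myh4 was at 0 in all 8. The ubiquitous forms are found in most tissues, and some markers of other heart cell types rose with TAC, as given below. The principal transcript had 393 bases for Cox7a1 and 659 for Cox7a2, and 360 for Cox8b and 550 for Cox8a. For Cox6a2 it had 680, longer than the 571 of Cox6a1. The part of cell composition or of transcript length in these ratios was not tested.

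**Figure D3:**
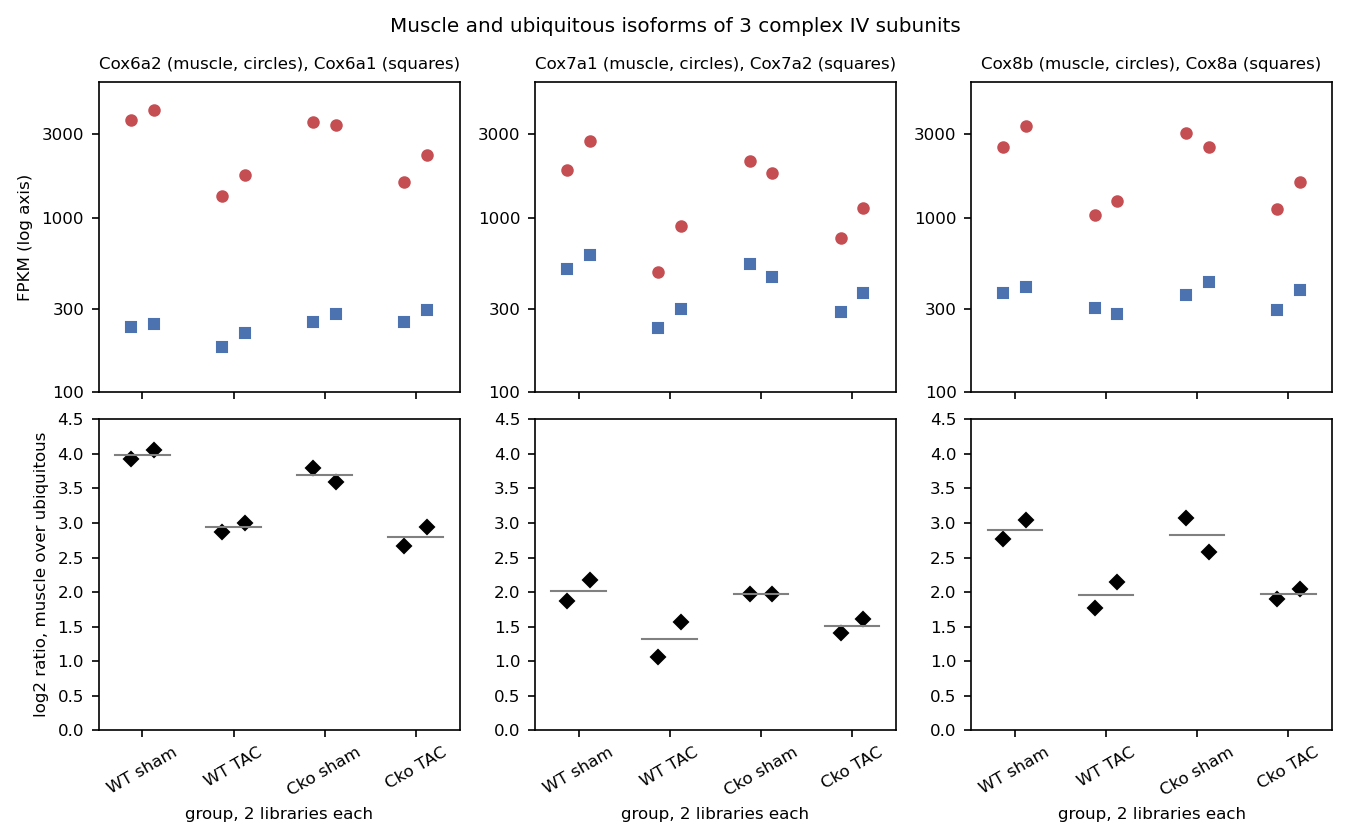
Top: FPKM (log axis) of the muscle form (circles) and the ubiquitous form (squares) of subunits VIa, VIIa and VIII in each library, by group. Bottom: log2 ratio of the 2 forms per library, with the group mean as a line; every sham ratio is above every TAC ratio of its pair.

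Within wild type, TAC was compared with sham to give the response with an intact Piezo1 gene. Of the 45 genes, 35 fell (7.65% of all genes tested were lower and 5.57% higher), with a median of -0.99 against 0.01 over all genes tested. By complex, 2 of 4 fell in II, 7 of 8 in III, 11 of 16 in IV and 15 of 17 in V. The largest changes were those of Cox7a1 (-1.77, adjusted p = 0.0246), Atp5k (-1.55, 0.0226) and Atp5e (-1.53, 0.0152), by limma with Benjamini-Hochberg adjustment. Cox6c fell by 1.22 (adjusted p = 0.0187) and Cox5a by 0.78 (adjusted p = 0.0288). Both TAC libraries lay below both sham libraries in 44 of the 45, with Uqcrc2 as the exception; this held for 30.9% of all genes tested.

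The WT count rested on all libraries in the fit. It was 0 without WT TAC replicate 1 and likewise without WT sham replicate 2. Leaving out WT sham replicate 1, the library with atrial genes, gave 7, and the count was 5 without Cko sham replicate 1 or 2 and 34 without Cko TAC replicate 1, Cko TAC replicate 2 or WT TAC replicate 2. It was 1 with only the 4 WT libraries in the fit and 2 with no filter on low values. The median moved less, between -1.17 and -0.76 over the 17 alternatives, and none of the 35 genes passed whichever library was left out.

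Within Piezo1-Cko, 0 of 45 genes passed by limma, where 0.546% of all genes tested were lower and 0.948% higher; 38 had an unadjusted p under 0.05 (21.8% of all genes tested), and limma-voom on recovered reads passed 1. The median log2 fold change was -0.62, with 44 of 45 estimates below 0. The smallest adjusted p was 0.0735, for Cox8b (-1.06). Cox7a1 had -1.06, Cox6a2 -0.86, Atp5e -0.78, Cox6c -0.73 and Cox5a -0.53 (limma adjusted p = 0.132, 0.0939, 0.104, 0.0985 and 0.127). Cox6a1 had 0.03 (adjusted p = 0.928). In 42 of the 45, both TAC libraries were below both sham libraries (28.3% of all genes tested); Cox4i2, Cox8a and Cox6a1 overlapped. By complex the medians were -0.53, -0.67, -0.64 and -0.62 for II, III, IV and V.

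The difference between the genotypes' responses was tested as an interaction, in which a value above 0 means a less negative or more positive change in Piezo1-Cko. None of the 45 genes passed by limma, where 0% of all genes tested were lower and 0.00718% higher, and 1 of the 45 had an unadjusted p under 0.05 (4.77% of all genes tested). The value was above 0 for 39 of the 45, against 50.8% of all genes tested, with a median of 0.35. These genes move together within a library, so 39 is not a count of independent observations. The 3 genes with the smallest p were Atp5e (0.74, 95% interval 0.01 to 1.48), Cox7c (0.56, -0.04 to 1.17) and Uqcr11 (0.64, -0.17 to 1.46), each with an adjusted p of 0.911. The median was 0.16 without Cko TAC replicate 2, 0.18 without WT TAC replicate 1, 0.52 without WT TAC replicate 2 and 0.55 without Cko TAC replicate 1.

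**Figure D4:**
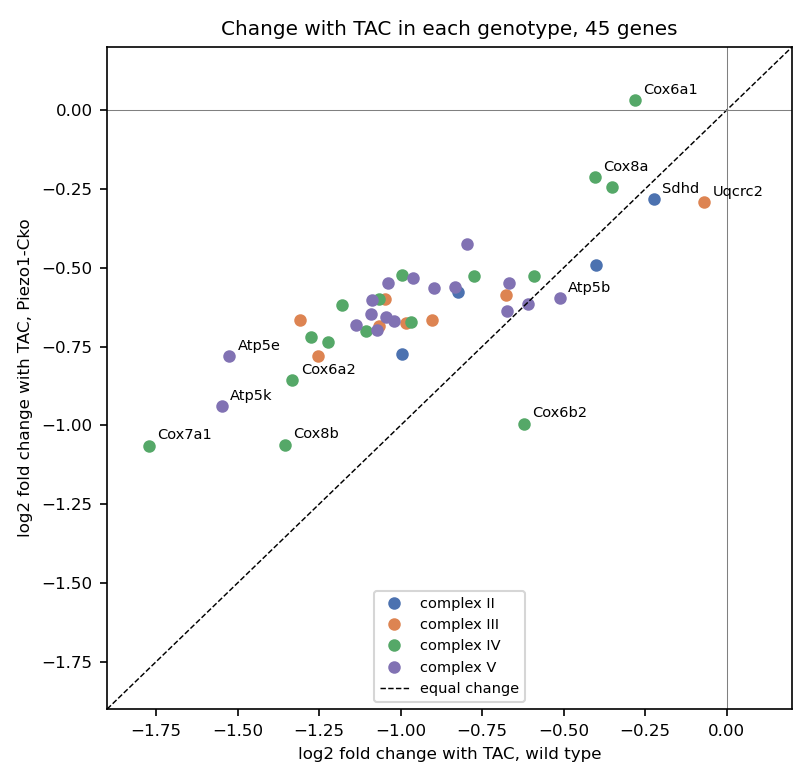
Log2 fold change with TAC in wild type (horizontal axis) and in Piezo1-Cko (vertical axis) for the 45 genes, coloured by complex, with equal change as a dashed line. Of the points, 39 lie above the line, and no gene's difference passed the test.

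Piezo1-Cko was also compared with wild type within each surgery. Under sham, 0 of 45 genes passed (0.00718% of all genes tested were lower and 0.0144% higher) and 0 had an unadjusted p under 0.05 by limma (7.68% of all genes tested); 39 estimates were below 0 and the median was -0.11, or 0.0088 without WT sham replicate 2. The genes with the smallest p were Cox4i2 (0.41), Atp5g2 (-0.23) and Sdhc (-0.24), with adjusted p of 0.740, 0.802 and 0.805. Under TAC, 0 of 45 passed (0% of all genes tested in either direction), 3 had an unadjusted p under 0.05 (6.67%, against 9.11% of all genes tested), 38 estimates were above 0 and the median was 0.25. Those 3 were Cox6a1 (0.46, 95% interval 0.09 to 0.82), Atp5e (0.63, 0.12 to 1.15) and Cox4i2 (0.52, 0.02 to 1.02), with limma adjusted p of 0.518, 0.521 and 0.538. The median under TAC was 0.055 without Cko TAC replicate 2, 0.088 without WT TAC replicate 1, 0.45 without WT TAC replicate 2 and 0.47 without Cko TAC replicate 1.

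The FPKM of the 45 genes summed to 32299 and 38524 with sham surgery and 15120 and 19037 with TAC in WT, and to 33503 and 31069 (sham) and 17405 and 22683 (TAC) in Cko. The 4 TAC sums lay below the 4 sham sums. Among TAC libraries, WT replicate 1 was lowest and Cko replicate 2 highest, and the ranges of the 2 genotypes overlapped.

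The other subunits and carriers of the chain were listed apart because their names fall outside the rule. In the averaged comparison 3 of 5 were lower (against 13.5% of all genes tested). Ndufa4, a protein of complex IV, fell by 0.90, Usmg5, a membrane subunit of complex V, by 0.81 and Cyc1, the cytochrome c1 of complex III, by 0.65 (limma adjusted p = 0.0117, 0.0104 and 0.0198). All 3 calls were lost without Cko sham replicate 1. Cycs, cytochrome c, had -0.34 and Atpif1, an inhibitor of the ATP synthase, -0.29 (adjusted p = 0.0886 and 0.260).

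Of the 6 mitochondrially encoded subunits of complexes III to V, 1 fell (against 13.5% of all genes tested), mt-Atp6, by 1.02 (limma adjusted p = 0.0459), and that call was lost under 11 of 16 alternatives. mt-Cytb had -0.54, mt-Co1 -0.13, mt-Co2 -1.01, mt-Co3 -1.51 and mt-Atp8 0.57 (adjusted p = 0.0767, 0.641, 0.0732, 0.157 and 0.257). Replicates of mt-Co3 differed widely, at 5601 and 676 FPKM in Cko sham and at 334 and 1389 in WT TAC. It was at 1391 and 1621 in WT sham and at 358 and 783 in Cko TAC. Levels also differed between these genes, with mt-Co1 at 40649 to 60619 FPKM over the 8 libraries and mt-Co2 at 455 to 2382. The reason was not tested.

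Assembly factors, which help build the complexes without being part of them, gave these counts of lower genes: 4 of 10 for complexes II and III, 8 of 23 for complex IV and 1 of 3 for complex V (against 13.5% of all genes tested), with medians of -0.40, -0.25 and -0.24. Uqcc2, needed for cytochrome b, was at 195 and 227 FPKM with sham surgery and 88.4 and 118 with TAC in WT, and at 208 and 211 (sham) and 128 and 153 (TAC) in Cko, and fell by 0.81 (limma adjusted p = 0.00718). Pet100 fell by 0.79 and Cox14 by 0.67 (adjusted p = 0.00407 and 0.00837), both factors of complex IV. These 3 passed under all 16 alternatives, while Sdhaf4 (-0.48) and Tmem70 (-0.41), a complex V factor, lost their calls under 8 and 7 of them.

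Among 19 transcriptional regulators of mitochondrial genes, 3 fell and 1 rose (15.8% and 5.26%, against 13.5% and 11.9% of all genes tested), so the counts were close to or below those over all genes. Perm1, a muscle regulator of oxidative genes, was at 68.0 and 79.9 FPKM with sham surgery and 50.6 and 52.5 with TAC in WT, and at 61.3 and 59.0 (sham) and 36.5 and 34.5 (TAC) in Cko. It fell by 0.63 (limma adjusted p = 0.00540) and was the one regulator that passed within Cko (-0.75, adjusted p = 0.0429). Esrra, an estrogen-related receptor, fell by 0.59 (adjusted p = 0.00893) over all and by 0.68 within WT (adjusted p = 0.0291). Both passed under all 16 alternatives of the averaged comparison. Esrrb (-0.34) and Mef2c (0.31) passed as well but lost their calls under 10 and 8 alternatives. Ppargc1a, a coactivator of mitochondrial biogenesis, had -0.21, and Nrf1 and Gabpa, whose motifs are shown above, had 0.03 and -0.06 (adjusted p = 0.462, 0.840 and 0.677).

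Markers of some cell types moved with the same surgery. Of 8 cardiomyocyte markers, 6 fell (against 13.5% of all genes tested), with a median of -0.80, among them Tnnt2 by 0.87 and Pln by 0.96. By limma all 5 macrophage markers rose, and 3 of 6 fibroblast markers, Postn, Col1a1 and Lum (against 11.9% of all genes tested). Of these markers, Tnnt2, Pln, Tnni3, Cd68, Postn and Col1a1 passed under all 16 alternatives and the others did not. Among endothelial markers 0 of 5 passed, and 1 of 5 smooth muscle and pericyte markers rose. The cardiomyocyte markers summed to 20296 to 22986 FPKM in sham and 12182 to 15477 in TAC, the fibroblast markers to 146 to 274 and 269 to 581, and the macrophage markers to 128 to 147 and 175 to 244. The ratio of the summed respiratory genes to the summed cardiomyocyte markers was 1.53 to 1.68 in sham and 1.23 to 1.48 in TAC. These ranges did not overlap, but the marker sum includes Actc1, which did not pass. Actc1 was at 4644 and 3937 FPKM with sham surgery and 4911 and 5468 with TAC in WT. In Cko it was at 4866 and 5075 (sham) and 4843 and 4484 (TAC). The ratio depends on counting Actc1, so it does not compare the respiratory genes with the markers that fell. With Actc1 left out of the marker sum, the sham and TAC ranges of the ratio overlap. The median log2 change was -0.82 for the respiratory genes and -0.80 for the 8 markers. The part of cell composition in the fall of the respiratory genes was not tested.

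Transcript length also moved with the response. Among tested protein-coding genes other than those described here, the median log2 fold change with TAC (averaged) was -0.35 for the 366 whose principal transcript is under 800 bases, -0.19 for 1555 of 800 to 1500 bases, -0.01 for 4239 of 1500 to 3000 bases and 0.10 for 6127 longer ones. In the same length classes the respiratory genes had medians of -0.85 (24 genes), -0.82 (11), -0.61 (8) and -0.72 (2), each below the other genes of its class. Across the 45 genes the change correlated with log2 length (Pearson r = 0.43, Spearman rho = 0.49). It also correlated with the mean log2(FPKM + 0.5) of the gene (r = -0.36, rho = -0.51). Across the 12287 other genes, r with length was 0.22 and rho 0.26. These are correlations across genes, which share libraries and are not independent. The part of length, of level or of RNA quality in the result was not tested.

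**Figure D5:**
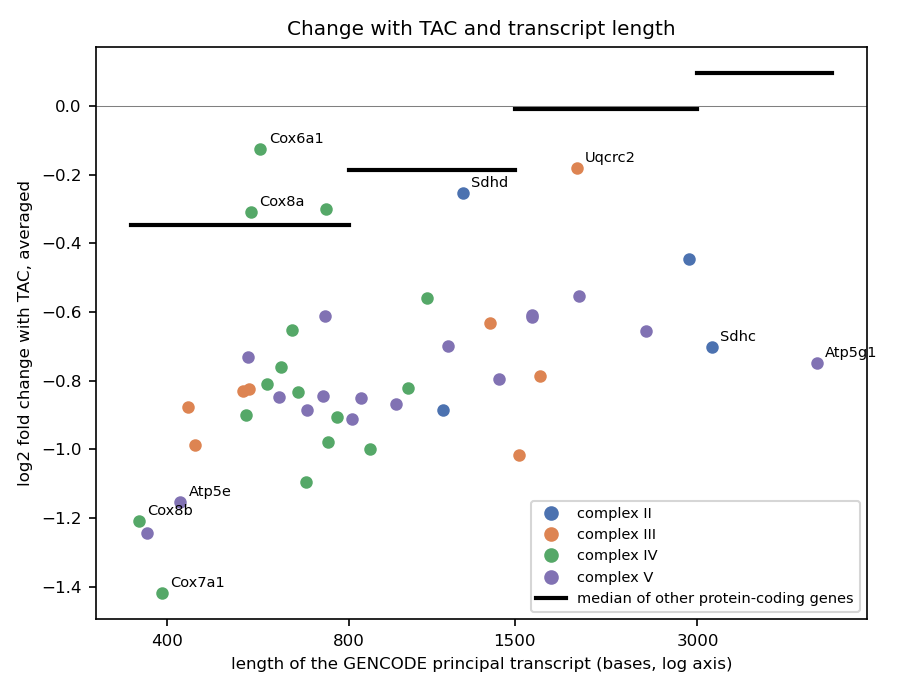
Log2 fold change with TAC averaged over genotypes (vertical axis) against the length of the principal GENCODE transcript (bases, log axis) for the 45 genes, coloured by complex, with the median of other protein-coding genes in each length class. The respiratory genes lie below the median of other genes of their length class, except Cox6a1, Cox8a and Cox4i2.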

How the data were processed

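RNA from heart tissue of 8 libraries was extracted with Trizol and prepared with the NEBNext Ultra kit, per the labels' protocols. Tools listed in the submitters' processing notes are featureCounts 1.5.0-p3, CASAVA 1.8 and Bowtie 0.12.2; the notes list both mm10 and mm8 without saying what each was for. Strand and scaling settings are not given in the sources used here. The authors deposited 1 table, whose values are FPKM, with a gene length in bases in another column. Multiplied by that length and divided by a step particular to the library, deposited FPKM values became whole reads (100% of values above 0, within 0.01 of a read); the scaled library size was 0.886 to 1.10 times their total. Samples were grouped by the genotype and treatment labels. 54495 gene identifiers were shared with GENCODE M21, and 53585 had the same GRCm38 coordinates.

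limma 3.58.1 (R 4.3.3) was fitted to log2(FPKM + 0.5) of 13928 genes in all 8 libraries, with 1 term per group, an intensity trend and robust moderation (4 residual degrees of freedom, median prior 3.54), two-sided, with Benjamini-Hochberg adjustment over all genes tested. This scale understates changes of low genes. Isoform ratios used exact permutation. Copies were found with minimap2 2.31-r1302. The libraries of a group differed by more than counting noise (chi-square per degree of freedom 17.9 to 46.6). The limma and permutation steps were run on simulated data to check the code, which does not measure how many real changes they miss here. The alternatives were 2 pseudocounts (0.1 and 1 FPKM), no filter, 3 scalings, limma-voom on recovered reads, the 4 compared libraries alone, a replicate block and each library left out. Levels per principal transcript, the TATA motif and a named look at WT sham replicate 1 were added after seeing the data.

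Genes and lists were chosen with earlier results of these data known. Genes named with values follow a rule: both forms of each complex IV pair, Cox4i1, Cox4i2, Cox6c, Cox5a, complex II, Uqcrc1, Uqcrfs1, the F1 alpha and beta genes, the c-ring genes, and per complex the 2 smallest p and the most and least abundant; per other list the 2 smallest p; other genes were named after their values were seen.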

Additional observations from a re-analysis of the deposited data

How the results depend on the processing

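The median log2 change with TAC of the respiratory genes stayed below 0 under the alternatives run (-0.92 to -0.60 averaged, -1.17 to -0.76 in WT, -0.82 to -0.41 in Cko), while counts of passing genes moved. In the averaged comparison 40 passed, 25 to 40 with a library left out and 36 to 40 otherwise. In WT 35 passed, 0 to 34 with a library left out, 2 with no filter and 1 with the 4 WT libraries alone, where calls over all genes went from 1066 lower and 776 higher to 108 and 139 with no filter and 116 and 156 with the 4. In Cko 0 passed, 0 to 1 with a library left out and 1 by limma-voom. Scaling by total reads moved the median of all genes from 0.01 to 0.19 and the calls from 1880 lower and 1657 higher to 971 and 3679; scaling by reads outside mitochondrially encoded genes gave 0.15, 1156 and 3117. Under total reads 37 respiratory genes passed and the medians were -0.35 (II), -0.62 (IV) and -0.57 (V); outside mitochondrially encoded genes 39 passed and II had -0.41. Signs changed, without a call, for Cox6a1 (averaged 0.042 and 0.10 by those 2 scalings; Cko -0.076 to 0.14 with a library left out, below 0 without Cko TAC replicate 2 or Cko sham replicate 1), Uqcrc2 (averaged 0.040 by total reads; WT 0.12 and 0.16 by the scalings, -0.37 to 0.23 with a library left out, above 0 without WT TAC replicate 1 or WT sham replicate 1) and Sdhd (WT 0.0060 by total reads). The causes were not tested. Same-numbered replicates correlated between groups by 0.0256 to 0.248, so numbers were taken as names. With the replicate block 40, 36 and 0 genes passed (averaged, WT, Cko), and the isoform ratios kept their differences of -0.97, -0.59 and -0.90, with exact permutation p = 0.125, the smallest that 16 arrangements allow. Pairs of libraries limit every comparison within a genotype.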
